A study of Mus musculus with 18 samples.

Results

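The genes described here encode the scaffold proteins of the postsynaptic density, the protein mesh under the membrane of excitatory synapses. They are the 3 Shank genes (Shank1, Shank2, Shank3), the 3 Homer genes (Homer1, Homer2, Homer3) and the 4 genes of the PSD-95 family (Dlg1, Dlg2, Dlg3, Dlg4). The members were taken by gene symbol, and all 10 were found among the 24062 lines of the count table and passed the filter on low counts in each tissue. RNA sequencing covered 18 mouse libraries on a C57BL/6 background, 3 in each of 6 groups. The groups were P45 hippocampus, E13.5 medial ganglionic eminence (MGE) and E13.5 cortex, each from mice heterozygous for Chd2 (HET) and from wild-type mice (WT). Chd2 encodes a chromatin remodeller. The kind of Chd2 allele is not given in the sources used here, and neither is whether replicates are separate animals. Each test therefore sees just the variation among these libraries, which may be technical in hippocampus and MGE and partly technical in cortex. In cortex, each genotype held libraries with and without Y-linked expression, so the libraries of a group there did not all come from the same animal.

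In the postsynaptic density, PSD-95 family proteins sit nearest the membrane and hold receptors and adhesion proteins through PDZ domains. GKAP proteins, encoded by the Dlgap genes, link them to Shank proteins deeper in the mesh, and Shank in turn binds Homer. Homer proteins also bind metabotropic glutamate receptors and inositol trisphosphate receptors, and so tie the synapse surface to calcium stores. Within the PSD-95 family, SAP102 (Dlg3) is known as the form prominent in the immature forebrain and PSD-95 (Dlg4) as the main form of mature excitatory synapses.

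Library totals ran from 26841671 to 38802765 counts. Levels are given as CPM, read counts scaled to library size with TMM factors over all 18 libraries, with the SD over 3 libraries. Chd2 itself averaged 66.0 ± 1.57 CPM in HET and 74.5 ± 4.12 CPM in WT hippocampus, 139 ± 4.38 and 163 ± 10.98 CPM in HET and WT MGE, and 125 ± 0.709 and 147 ± 5.16 CPM in HET and WT cortex (n = 3 each). The Chd2 log2 fold changes of HET over WT were -0.17 (SE 0.06, adjusted p = 0.191) in hippocampus, -0.24 (SE 0.09, adjusted p = 0.980) in MGE and -0.22 (SE 0.08, adjusted p = 0.578) in cortex by edgeR, below WT in each tissue and not called. Markers that go with the labels were found. Camk2a, a kinase of mature excitatory neurons in general, stood at 5804 CPM in HET hippocampus and 6219.9 CPM in WT hippocampus. Nkx2-1, which specifies the MGE, stood at 918 CPM in HET MGE and 836 CPM in WT MGE. The 7 pallial (cortical) markers summed to 1952 to 2890 CPM in cortex, 608 to 714 CPM in hippocampus and 7.74 to 22.4 CPM in MGE. Some libraries stood apart from others of their group. On the mean of 11 neuron markers, as a log2 deviation from the 6 libraries of the tissue, cortex HET 1, HET 2 and HET 3 lay at -0.37, -0.40 and 0.26, against 0.09, 0.12 and 0.30 in WT. On 10 progenitor markers the cortex HET libraries lay at 0.43, 0.31 and -0.28, against -0.19, -0.05 and -0.22 in WT. In MGE the neuron markers lay at 0.30, -0.39 and -0.01 in HET, against -0.12, -0.04 and 0.26 in WT. The 6 choroid plexus markers summed to 10.4, 252 and 439 CPM in HET cortex and 1572, 4.37 and 1213 CPM in WT cortex. The 7 blood markers summed to 929, 1150 and 376 CPM in HET cortex and 295, 379 and 448 CPM in WT cortex. The 7 mesenchyme markers summed to 386 to 803 CPM in cortex and 31.9 to 55.0 CPM in MGE. The part of these cells in the cortex results was not tested. The female-specific RNA Xist was at 0.490 to 1.08 CPM in the 3 HET MGE libraries and at 1736 to 1900.3 CPM in the 3 WT MGE libraries, so sex and genotype cannot be told apart in MGE.

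In mm10, 4 of the genes lie on the chromosome that carries Chd2 (chr7:73426638-73541830). Homer2 (chr7:81600481-81707527) is 8.06 Mb from it, Dlg2 (chr7:90476672-92449247) is 16.9 Mb away and Shank1 (chr7:44310253-44360572) is 29.1 Mb away. Shank2 (chr7:144001928-144424494) is the farthest, at 70.5 Mb. The others are Shank3 (chr15:89499623-89560261), Homer1 (chr13:93299635-93405129), Homer3 (chr8:70282827-70294361), Dlg1 (chr16:31663443-31875129), Dlg4 (chr11:70016942-70047522) and the X-linked Dlg3 (chrX:100767722-100818410). Counts were per gene, so the short Homer1 transcript induced by neuronal activity was not separated from the long forms. In Homer3, 25.4% of the exon bases overlap Ddx49 on the opposite strand, and the strand setting of the counting is not given in the sources used here, so Homer3 values are uncertain. Ddx49 itself averaged 21.9 and 22.4 CPM in HET and WT hippocampus, 43.5 and 40.7 CPM in HET and WT MGE, and 46.4 and 45.6 CPM in HET and WT cortex.

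RefSeq promoter windows of 300 bases (250 before and 50 after an annotated start, build GRCm38.p6) matched 8 of the 10 genes, with 18 windows in all. The windows below show 1 gene of each family that was higher in hippocampus than in the embryonic tissues (Homer1, Dlg4 and Shank3), beside Dlg1, which was not called between hippocampus and cortex. Capitals mark the TGACG core of the cyclic AMP response element and the GC box GGGCGG, read on both strands, and every window is printed 5′ to 3′ on the plus strand of its gene.
Homer1, chr13:93303507-93303806, plus strand: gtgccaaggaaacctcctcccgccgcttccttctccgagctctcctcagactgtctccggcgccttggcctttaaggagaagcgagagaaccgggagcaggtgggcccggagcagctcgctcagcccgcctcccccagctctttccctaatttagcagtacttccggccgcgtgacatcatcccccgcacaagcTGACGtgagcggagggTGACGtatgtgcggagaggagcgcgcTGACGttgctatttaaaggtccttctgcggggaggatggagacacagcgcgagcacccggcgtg
Dlg4, chr11:70023732-70024031, plus strand: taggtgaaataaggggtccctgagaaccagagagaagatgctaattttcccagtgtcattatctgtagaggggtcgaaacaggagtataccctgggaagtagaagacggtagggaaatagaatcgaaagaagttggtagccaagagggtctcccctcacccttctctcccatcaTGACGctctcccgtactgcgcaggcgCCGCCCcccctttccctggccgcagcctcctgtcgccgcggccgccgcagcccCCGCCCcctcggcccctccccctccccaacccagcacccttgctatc
Shank3, chr15:89499358-89499657, plus strand: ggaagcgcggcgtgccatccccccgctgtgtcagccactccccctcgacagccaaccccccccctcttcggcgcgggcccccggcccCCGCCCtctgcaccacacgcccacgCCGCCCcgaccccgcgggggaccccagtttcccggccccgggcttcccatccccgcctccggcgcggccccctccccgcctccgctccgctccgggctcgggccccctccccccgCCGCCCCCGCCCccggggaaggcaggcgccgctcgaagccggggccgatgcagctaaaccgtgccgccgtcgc
Dlg1, chr16:31663685-31663984, plus strand: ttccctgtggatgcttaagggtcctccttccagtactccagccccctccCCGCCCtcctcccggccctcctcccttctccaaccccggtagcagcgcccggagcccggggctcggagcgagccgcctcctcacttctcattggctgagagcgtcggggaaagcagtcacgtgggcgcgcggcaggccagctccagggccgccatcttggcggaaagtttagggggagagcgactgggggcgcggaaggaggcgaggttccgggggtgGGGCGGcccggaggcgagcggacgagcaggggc
The Homer1 window held 3 TGACG cores and no GC box, and the Dlg4 window held 1 core and 2 GC boxes. Homer1, Dlg4 and Dlg1 have further windows that are not printed. The other Homer1 window (from chr13:93307784) and the other Dlg4 windows (from chr11:70016953 and chr11:70018355) held no core and no GC box. No Dlg1 window held a core. The motifs shown for Homer1 and Dlg4 therefore depend on which window was printed. The Shank3 window held 4 GC boxes and was 81.0% G and C, and the Dlg1 window held 2 GC boxes and no TGACG core. Across the 18 windows, 3 held a TGACG core, 7 a GC box and 3 a TATAAA motif, and 0 held the full element TGACGTCA. Among 32851 promoters of the same length, 20.8% held the core, 35.7% a GC box, 13.6% TATAAA and 1.79% the full element. A match is a run of letters, not a measured binding site.

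Nearly the whole scaffold set stood higher in the P45 hippocampus than in either E13.5 tissue, with fold changes that differed between the families. In WT, 9 of the 10 genes were called higher in hippocampus than in cortex and 9 in hippocampus than in MGE, by edgeR's quasi-likelihood test in a fit of all 18 libraries with Benjamini-Hochberg adjustment over 16125 genes. These contrasts called 78.9% (cortex) and 80.4% (MGE) of all genes, and called 38.6% and 40.8% of all genes higher in hippocampus. In HET, 9 genes were called higher in both contrasts, where 80.2% (cortex) and 81.3% (MGE) of all genes were called and 39.4% and 41.2% were higher. The median log2 fold change of the 10 genes was 2.54 for WT hippocampus over cortex and 2.73 for WT hippocampus over MGE, against -0.04 and 0.03 over all genes. The hippocampal libraries were older and came from another region than the embryonic ones, so age and region cannot be told apart. Y-linked genes summed to at most 0.104 CPM in the 6 hippocampal libraries and to 211 to 259 CPM in the 3 HET MGE libraries. Sex therefore also goes with HET hippocampus against HET MGE. In cortex, HET 1, HET 3 and WT 1 had Y-linked expression (220, 235 and 240 CPM) and the other libraries had next to none, so sex was unevenly spread there. In bulk tissue, fewer cells of a type and less RNA per cell cannot be told apart either. Cell composition moved with these contrasts: the 10 progenitor markers summed to 250.4 to 284 CPM in hippocampus against 3664 to 6555 CPM in the embryonic libraries, and 8 oligodendrocyte markers to 6748 to 10531 CPM in hippocampus against 36.3 to 97.3 CPM in the embryonic libraries. Their part in the result was not tested.

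**Figure D1:**
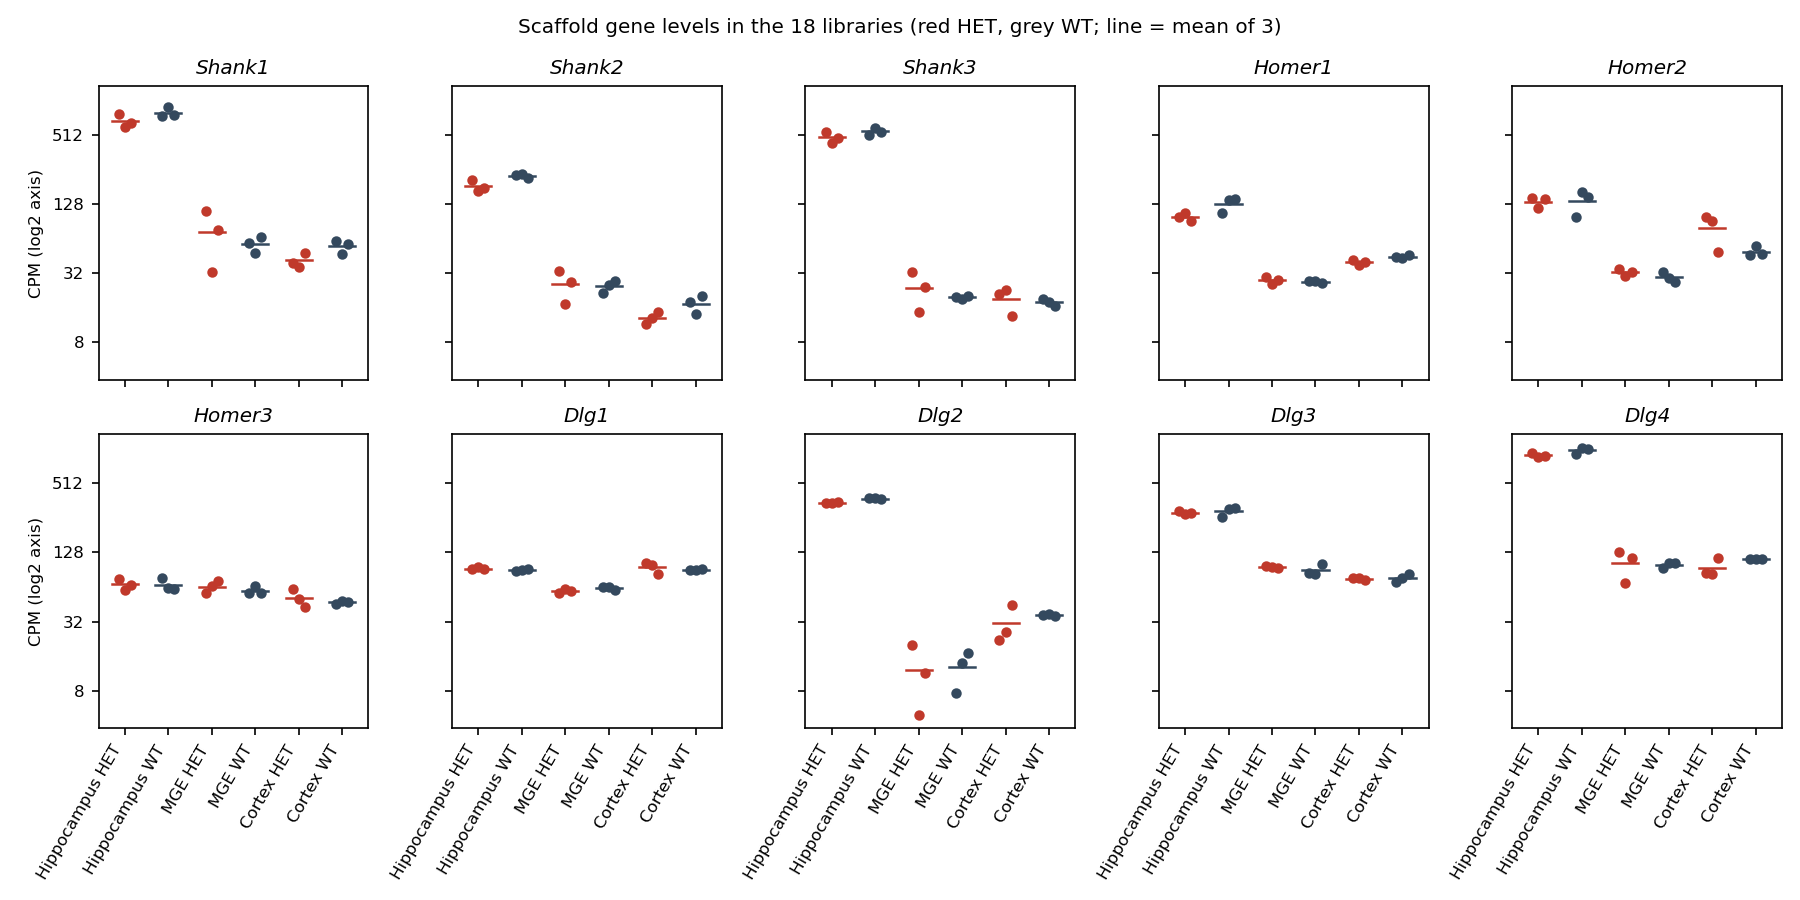
Level of each scaffold gene in CPM (shared log2 axis) in the 18 libraries, with HET left of WT in hippocampus, MGE and cortex; points are libraries and lines the means of 3. Shank1 to Shank3, Dlg2, Dlg3 and Dlg4 in all 6 hippocampal libraries lie above all 12 embryonic libraries, while Homer3 in hippocampus overlaps with MGE and Dlg1 in hippocampus with cortex.

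The Shank genes, the master scaffolds that join GKAP to Homer and actin regulators, had the highest family median, log2 3.86 for WT hippocampus over cortex against 2.54 for the PSD-95 family and 1.47 for the Homer family. Shank3 stood at 546, 434 and 481 CPM in HET hippocampus and 514, 589 and 548 CPM in WT hippocampus. In MGE, Shank3 stood at 32.6, 14.7 and 24.1 CPM in HET and 20.004, 19.2 and 20.4 CPM in WT, and in cortex at 21.2, 22.7 and 13.51 CPM in HET and 19.1, 18.1 and 16.8 CPM in WT. No embryonic library came near a hippocampal one, and the fitted difference in WT was 30.6-fold over cortex (log2 4.93, SE 0.25, adjusted p = 7.74e-12) and 27.7-fold over MGE (log2 4.79, SE 0.24). Shank1 stood at 778, 595 and 655 CPM in HET hippocampus and 749, 894 and 759.8 CPM in WT hippocampus. Its embryonic values were 33.1 to 112 CPM in HET MGE, 48.1 to 66.3 CPM in WT MGE, 36.3 to 48.3 CPM in HET cortex and 47.4 to 60.6 CPM in WT cortex, and WT hippocampus was 14.5-fold above cortex (log2 3.86, SE 0.31). Shank2 reached 209, 167 and 178 CPM in HET hippocampus and 231, 234 and 215 CPM in WT hippocampus, with 11.5 to 33.2 CPM in the 12 embryonic libraries. Its WT hippocampus was 13.02-fold above cortex (log2 3.70, SE 0.20) and 9.12-fold above MGE (log2 3.19, SE 0.19).

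The PSD-95 family was not uniform. Dlg4, encoding PSD-95, stood at 948, 875 and 884 CPM in HET hippocampus and 915, 1046 and 1008 CPM in WT hippocampus, with 68.7 to 129.5 CPM in MGE and 82.9 to 115 CPM in cortex over both genotypes. WT hippocampus was 8.84-fold above cortex for Dlg4 (log2 3.14, SE 0.18) and 9.88-fold above MGE (log2 3.30, SE 0.18). Dlg2, encoding PSD-93, stood at 348, 344 and 351 CPM in HET hippocampus and 378, 378 and 374 CPM in WT hippocampus. In MGE it stood at 20.03, 4.93 and 11.4 CPM in HET and 7.67, 13.8 and 17.0 CPM in WT, so WT hippocampus was 29.5-fold higher (log2 4.88, SE 0.41). Against WT cortex the Dlg2 difference was 10.3-fold (log2 3.37, SE 0.38). Dlg3, encoding SAP102, was also higher in hippocampus but by less, with 278 to 291 CPM in HET hippocampus, 260.4 to 312 CPM in WT hippocampus, 83.2 to 102 CPM in MGE and 70.4 to 82.5 CPM in cortex. Its WT hippocampus was 3.81-fold above cortex (log2 1.93, SE 0.09) and 3.24-fold above MGE (log2 1.70, SE 0.09). Dlg1, encoding SAP97, which also works in epithelia and in protein trafficking, was the exception. It stood at 91.2, 94.8 and 91.3 CPM in HET hippocampus and 88.2, 89.1 and 92.5 CPM in WT hippocampus, with 104, 100.006 and 83.4 CPM in HET cortex and 89.2, 90.3 and 91.7 CPM in WT cortex. The Dlg1 groups overlapped, and WT hippocampus over WT cortex differed by log2 -0.01 (SE 0.08, adjusted p = 0.937). Dlg1 was lower in MGE, at 56.7, 61.3 and 58.6 CPM in HET and 63.7, 64.0 and 59.9 CPM in WT, and WT hippocampus lay 1.44-fold above WT MGE (log2 0.52, SE 0.08, adjusted p = 7.61e-06).

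The Homer genes had smaller fold changes than the Shank genes in each contrast of hippocampus with embryo. Homer1, whose long forms cross-link receptors and calcium channels, stood at 97.9, 108 and 91.2 CPM in HET hippocampus and 108, 138 and 142 CPM in WT hippocampus. It stood at 25.7 to 29.4 CPM in MGE and 37.6 to 46.3 CPM in cortex over both genotypes, and no embryonic library reached a hippocampal one. WT hippocampus was 2.89-fold above cortex (log2 1.53, SE 0.10) and 4.80-fold above MGE (log2 2.26, SE 0.10). Homer2 stood at 144, 117 and 141 CPM in HET hippocampus and 99.4, 163 and 147 CPM in WT hippocampus, and its values in cortex were 99.0, 91.4 and 49.5 CPM in HET and 45.9, 55.0 and 47.1 CPM in WT. WT hippocampus was 2.77-fold above cortex for Homer2 (log2 1.47, SE 0.21), and HET hippocampus was 1.68-fold above (log2 0.75, SE 0.21, adjusted p = 0.00346). Over all settings the HET value of Homer2 ran from log2 0.53 to 1.43. The highest was that without cortex HET 1 and HET 2, a setting chosen after seeing the data. In MGE, Homer2 lay at 30.4 to 34.9 CPM in the HET libraries and at 26.8 to 33.0 CPM in the WT libraries, and WT hippocampus was 4.60-fold above WT MGE (log2 2.20, SE 0.22). Homer3, the form best known from cerebellar Purkinje cells, lay at 60.6 to 76.2 CPM in hippocampus, 56.4 to 72.1 CPM in MGE and 43.2 to 61.2 CPM in cortex over both genotypes. It was called higher in WT hippocampus than in WT cortex (log2 0.50, SE 0.13, adjusted p = 0.00155) and not than in WT MGE (log2 0.17, SE 0.13, adjusted p = 0.227). In HET the fold of hippocampus over cortex was 16.3 for Shank1, 14.1 for Shank2, 25.5 for Shank3, 11.2 for Dlg2, 9.61 for Dlg4, 3.74 for Dlg3 and 2.48 for Homer1. At a fold of at least 4 together with a call, 5 of the 10 genes were higher in WT hippocampus than in WT cortex, where 17.2% of all genes did, and 7 than in WT MGE, where 20% of all genes did.

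**Figure D2:**
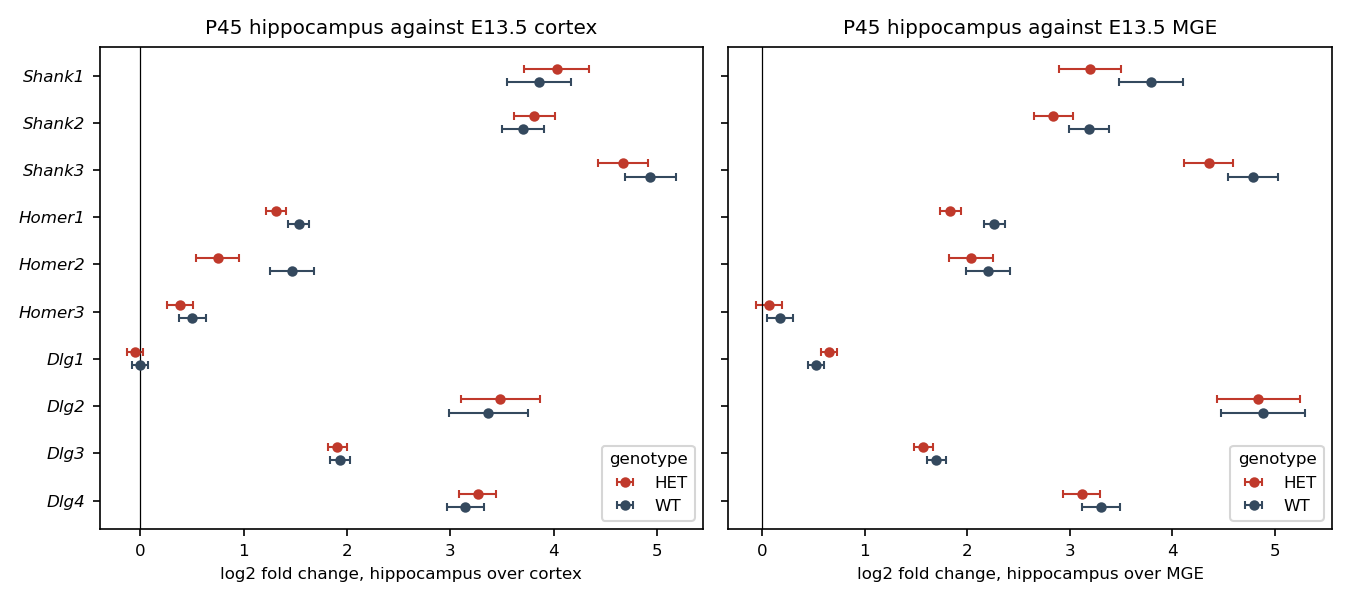
Log2 fold change of hippocampus over cortex (left) and over MGE (right) for each gene, HET in red and WT in dark blue; points are edgeR estimates and bars their SE. Shank3 is near 5 in WT in both panels, Dlg1 lies on 0 against cortex and Homer3 lies at 0.17 or below against MGE.

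Compared per kb of annotated exon (GENCODE M21), the order of the genes differed between hippocampus and embryo. In hippocampus, Dlg4 (68.1 ± 3.00 CPM per kb in HET and 74.7 ± 5.07 in WT, n = 3 each) and Shank1 (64.3 ± 8.89 in HET and 76.2 ± 7.66 in WT) led, and their ranges overlapped. Shank3 followed with 53.0 ± 6.09 CPM per kb in HET and 59.9 ± 4.10 in WT, and Dlg3 with 48.6 ± 1.15 in HET and 50.01 ± 4.78 in WT. The lowest hippocampal levels per kb were those of Homer1, with 8.27 in HET and 10.8 in WT, and Dlg1, with 8.61 in HET and 8.38 in WT. In all 4 embryonic groups Homer3 and Dlg3 ranked first and second, with 18.8 and 16.4 CPM per kb in HET MGE, 17.3 and 15.4 in WT MGE, 15.04 and 12.97 in HET cortex and 13.7 and 13.1 in WT cortex. Dlg2 was the lowest in MGE (0.744 in HET and 0.787 in WT) and Shank2 in cortex (1.22 in HET and 1.62 in WT). Exon length here is the union over transcripts, so levels per kb understate genes whose long exons are rarely used.

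Within each family, the same levels give each member's share. Dlg4 made up 46.4% ± 0.756 of the PSD-95 family in HET and 47.8% ± 0.704 in WT hippocampus (SD, n = 3 each). Its share was 25.5% ± 5.88 in HET and 25.6% ± 1.25 in WT MGE, and 22.9% ± 3.84 in HET and 26.2% ± 0.778 in WT cortex. Per kb, Dlg3 held the largest share in each embryonic group, with 54.0% in HET and 52.0% in WT MGE and 42.0% in HET and 40.7% in WT cortex, against 33.1% in HET and 32.0% in WT hippocampus. From counts without a length, Dlg4 held 37.8% in HET and 37.7% in WT MGE and Dlg3 held 35.8% and 33.9%. In cortex the shares without a length were 31.5% in HET and 35.5% in WT for Dlg4, 32.5% and 28.7% for Dlg1, and 25.6% and 24.3% for Dlg3. The ranking of Dlg3 thus depends on the exon lengths used, 5.844 kb for Dlg3, 13.251 kb for Dlg4 and 10.736 kb for Dlg1. The Dlg4 length is a union over 22 transcripts and that of Dlg3 over 8, so the level of Dlg4 per kb may be understated. The log2 ratio of Dlg4 to Dlg3 was 0.49 in HET and 0.58 in WT hippocampus, -1.11 and -1.02 in HET and WT MGE, and -0.89 and -0.63 in HET and WT cortex, and its sign depends on the exon lengths. From counts without a length the log2 ratio of Dlg4 to Dlg3 was 1.67 in HET and 1.76 in WT hippocampus, 0.07 and 0.16 in HET and WT MGE, and 0.29 and 0.55 in HET and WT cortex. With either measure the ratio was higher in the 6 hippocampal libraries than in the 12 embryonic ones. Among Shank genes, Shank3 held 39.4% in HET and 38.2% in WT hippocampus, 22.3% and 21.8% in HET and WT MGE, and 28.9% and 22.3% in HET and WT cortex. Per kb, Homer3 held 79.1% in HET and 78.9% in WT MGE and 61.0% in HET and 64.2% in WT cortex, against 50.8% in HET and 47.6% in WT hippocampus, with the limit on its counts given above. From counts without a length, Homer3 held 51.6% in HET and 51.2% in WT MGE, 30.4% in HET and 33.4% in WT cortex, and 22.4% in HET and 20.6% in WT hippocampus, and Homer2 was the largest Homer in cortex (45.7% in HET and 34.9% in WT) and in hippocampus (44.6% in HET and 40.6% in WT).

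Between HET and WT, none of the 33 comparisons of shares and ratios (11 in each tissue) passed an exact two-sided permutation test with Benjamini-Hochberg adjustment. With 3 against 3 libraries that test cannot go below 0.1, and the lowest adjusted p was 0.733. The groups did not overlap in 1 of the 33, the Homer3 share in cortex, at 58.7 to 63.3% in HET and 63.8 to 64.5% in WT, and in 3 of the 33 from counts without a length, with the Homer1 and Dlg1 shares in hippocampus added.

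**Figure D3:**
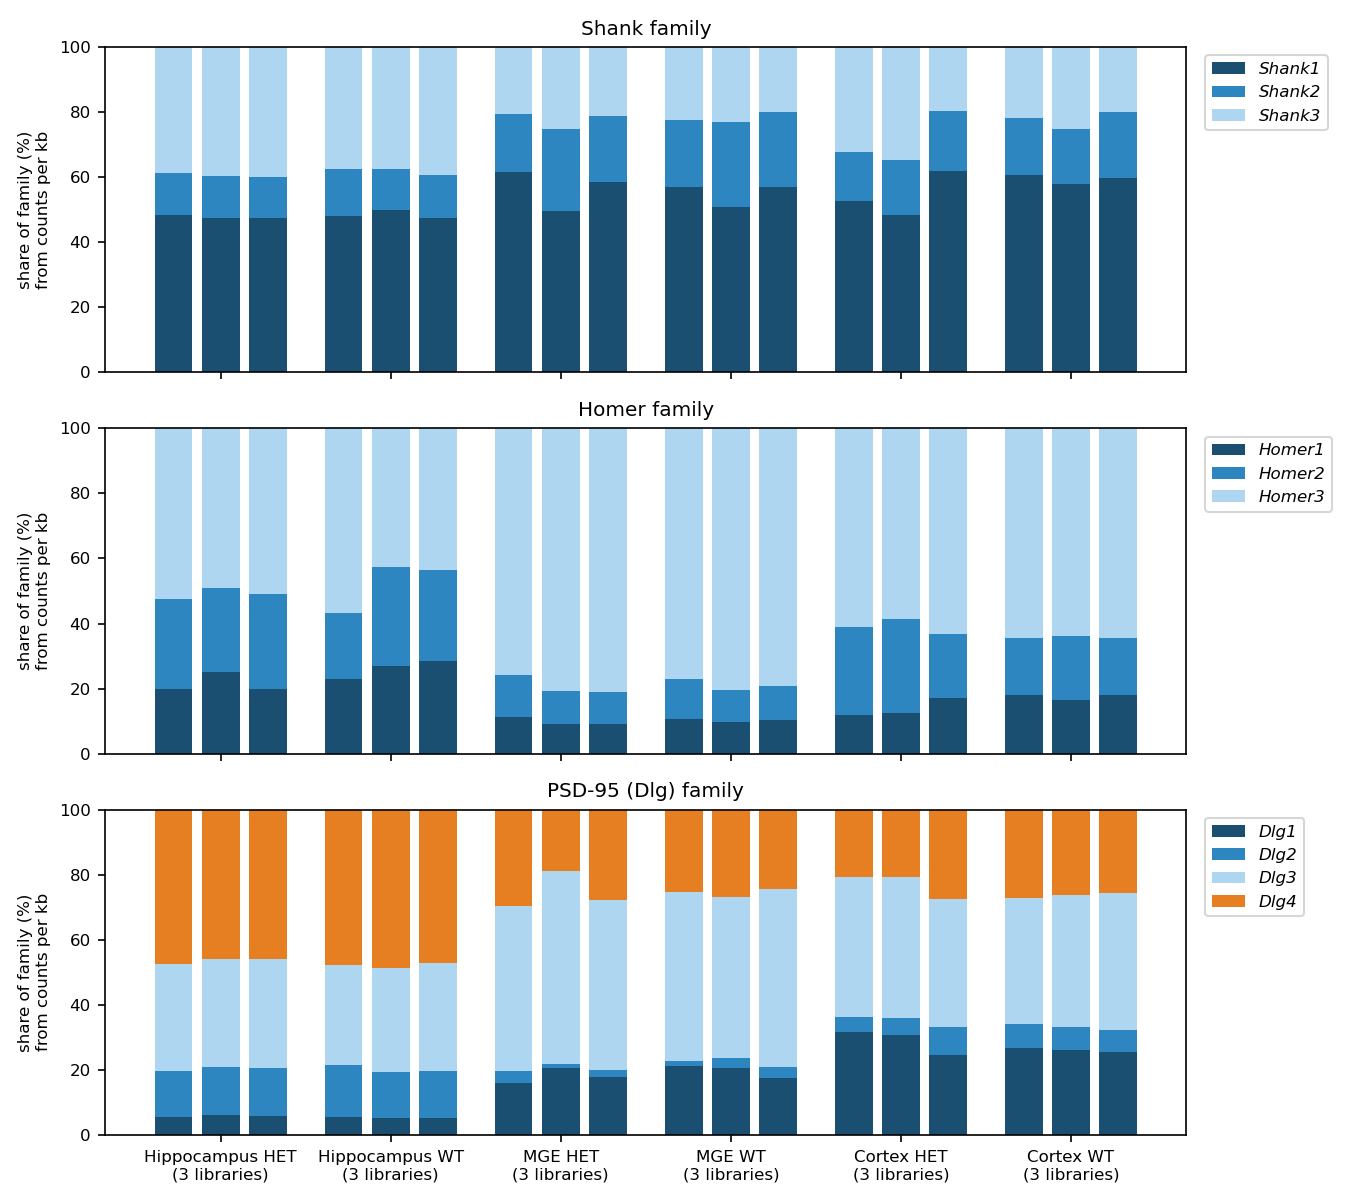
Share of each gene in its family (percent, from counts per kb of exon) in each of the 18 libraries, Shank family on top, Homer family in the middle and PSD-95 family below; bars are libraries, with HET left of WT in each tissue. Dlg4 fills 46.0 to 48.6% of each hippocampal bar of the PSD-95 family, while Dlg3 is the widest band in the embryonic bars on this per-kb scale.

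Between the embryonic tissues, 7 of the 10 genes differed in WT at an adjusted p under 0.05, where 44.3% of all genes were called, and 7 in HET, where 41% were. Homer1, Homer2, Dlg1 and Dlg2 were lower in MGE in both genotypes. Homer1 averaged 27.0 ± 0.764 CPM in WT MGE and 44.7 ± 1.43 CPM in WT cortex (n = 3 each, log2 -0.73, SE 0.10), and Dlg1 averaged 62.6 ± 2.28 CPM in WT MGE and 90.4 ± 1.26 CPM in WT cortex (log2 -0.53, SE 0.08). Dlg2 had the largest gap, at log2 -1.51 in WT (SE 0.37, adjusted p = 0.00338). For Homer2 the log2 fold change of MGE over cortex was -0.73 (SE 0.21) in WT. Shank2 (0.51, SE 0.19), Homer3 (0.34, SE 0.13) and Dlg3 (0.23, SE 0.09) were called higher in WT MGE, with adjusted p of 0.0329, 0.0405 and 0.0454. These 3 calls were lost with upper-quartile scaling (adjusted p of 0.0649, 0.0698 and 0.108), and without MGE WT 3 (log2 0.44, 0.37 and 0.14), cortex WT 1 or cortex WT 2. The Shank2 and Homer3 calls were also lost without MGE WT 2, and the Homer3 call without cortex WT 3. The Dlg3 call was also lost without a filter on low counts (adjusted p = 0.0755) and with the 6 libraries fitted alone (adjusted p = 0.0603). Shank1, Shank3 and Dlg4 were not called between the WT embryonic tissues, at log2 0.06, 0.14 and -0.16. In HET, Shank1 (0.83), Shank2 (0.97) and Dlg3 (0.34) were the 3 called higher in MGE. Homer3, at log2 0.32 and not called (adjusted p = 0.0527), was called higher with RLE scaling (adjusted p = 0.0406), without a filter (0.0494), with DESeq2 (0.0342) and with limma-voom (0.0425), and also without MGE HET 1, without cortex HET 1, and without cortex HET 1 and HET 2. The Shank1 call was lost with limma-voom (adjusted p = 0.0766), with the 6 libraries fitted alone (adjusted p = 0.130), without MGE HET 1 (log2 0.39, adjusted p = 0.235), the library with the highest Shank1 level in MGE, without MGE HET 3 (0.81), without cortex HET 1 (0.80), cortex HET 2 (0.74) or both (0.61). The Dlg2 difference in HET was not called without cortex HET 3 (log2 -0.97, adjusted p = 0.0653) or with the 6 libraries fitted alone (log2 -1.35, adjusted p = 0.0656). Shank3 and Dlg4 were called higher in HET MGE without MGE HET 2 (log2 0.57 and 0.37), and Shank3 also without cortex HET 1 and HET 2 (log2 0.82).

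Proteins that bind or work with these scaffolds, called binding partners here, were taken as 5 further lists, given by function. All 4 Dlgap genes, which link PSD-95 to Shank, were called higher in WT hippocampus than in WT cortex and than in WT MGE, led over cortex by Dlgap1 (log2 5.92, SE 0.30), Dlgap3 (5.49, SE 0.15) and Dlgap2 (5.23, SE 0.27). All 13 genes listed for proteins that can bind PSD-95 family scaffolds, directly or through a partner, were higher in both contrasts. The list is called PSD-95-held proteins below, as a label and not as a finding about each member. Over cortex the 13 genes were led by the NMDA receptor subunits Grin2a (log2 10.10, SE 0.36) and Grin1 (6.94, SE 0.41) and the AMPA receptor auxiliary subunit Cacng3 (5.72, SE 0.42). Of 9 Homer-binding proteins 7 were higher and 1 lower in each contrast, with the ryanodine receptor Ryr2 (7.36, SE 0.37) and the metabotropic receptor Grm5 (4.89, SE 0.38) higher over cortex and drebrin, an actin-binding protein encoded by Dbn1, lower (-0.50, SE 0.10). Of 27 other postsynaptic density proteins 22 were higher and 1 lower in each contrast, with the calmodulin-binding protein Nrgn (log2 9.60, SE 0.17), the kinase subunit Camk2a (8.90, SE 0.24) and the activity-regulated Arc (6.14, SE 0.34) highest and the scaffold Magi1 at -0.66 (SE 0.12) over cortex. The remaining 11 membrane-associated guanylate kinases and Lin7 proteins were mixed, with 5 higher and 4 lower over WT cortex and 5 higher and 5 lower over WT MGE, and Lin7b (log2 4.85, SE 0.19) and Mpp7 (-2.005, SE 0.27) lay at the ends over cortex. The median log2 fold change over WT cortex was 5.36 for the Dlgap genes, 4.27 for the PSD-95-held proteins and 3.31 for the Homer-binding proteins. It was 2.84 for the other postsynaptic density proteins and -0.08 for the other guanylate kinases, against -0.04 over all genes. Over all genes, 38.6% were called higher in WT hippocampus than in WT cortex and 40.8% than in WT MGE. Of 11 neuron markers, 4 were higher and 4 lower in WT hippocampus than in WT cortex. That list mixed genes that went opposite ways, so its even split is not a measure of neuron content.

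The pattern of each gene over the 18 libraries was set beside that of 16115 other genes by Pearson's r of log2 CPM, as a description. The 18 points share libraries and the split between hippocampus and embryo. The closest gene was the calcium channel gene Cacna1b for Shank1 (r = 0.998), the presynaptic scaffold gene Bsn for Shank2 (0.998), Cds2 for Shank3 (0.998), Lingo1 for Dlg2 (0.997), Hipk4 for Dlg3 (0.996) and the junctophilin gene Jph3 for Dlg4 (0.999). For Homer1 it was Itpr1 (0.990), which encodes the inositol trisphosphate receptor that Homer binds, for Homer2 Dusp7 (0.976) and for Dlg1 Fam184b (0.975). Homer3 had the loosest match, with Usp5 at 0.901.

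The genotype comparison asks whether Chd2 heterozygosity alters the scaffold genes in each tissue. In hippocampus 0 of the 10 genes passed the edgeR test within the tissue, where 1.07% of 15283 genes were called. With an unadjusted p under 0.05 there were 3, Shank2, Homer1 and Dlg2, all lower in HET, where 15.6% of all genes had such a p and 8.81% had it in the lower direction. Shank2 stood at 209, 167 and 178 CPM in HET and 231, 234 and 215 CPM in WT (log2 -0.29, SE 0.08, adjusted p = 0.120). All 3 HET values of Shank2 lay below the WT values. Homer1 stood at 97.9, 108 and 91.2 CPM in HET and 108, 138 and 142 CPM in WT (log2 -0.38, SE 0.10, adjusted p = 0.123). The Homer1 groups met at HET 2 and WT 1. Dlg2 had 348 ± 3.17 CPM in HET and 377 ± 2.11 CPM in WT hippocampus, a small difference with no overlap (n = 3 each, log2 -0.11, SE 0.05, adjusted p = 0.316). Groups that did not overlap, with HET lower, made up 11.7% of all genes and 2 of the 10 scaffold genes.

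Of the 10 genes, 8 had a log2 fold change below 0 in hippocampus, as had 48.6% of all genes, and their median was -0.12. Shank1 had -0.24 (SE 0.11, adjusted p = 0.320), Shank3 -0.17 (SE 0.08, adjusted p = 0.347) and Dlg4 -0.13 (SE 0.06, adjusted p = 0.361). DESeq2, which called 445 genes where edgeR called 164, called Shank2 (adjusted p = 0.0300) and Homer1 (adjusted p = 0.00767) lower. With edgeR, Homer1 was called without WT 1 (log2 -0.49, adjusted p = 0.00418) and Shank2 without HET 1 (log2 -0.39, adjusted p = 0.0338). The share of all genes called in these omission runs is not given here, so the calls have no background to be set against. In limma-voom 0 of the 10 were called, with 4 at an unadjusted p under 0.05. None of the 64 genes of the 5 binding-partner lists was called by edgeR in hippocampus, with 19 at an unadjusted p under 0.05, while DESeq2 called 4 lower and limma-voom 0. The 4 Dlgap genes all had values below 0, and so had 23 of the 27 other postsynaptic density proteins, with a median of -0.06. The lowest p by edgeR was that of Mpp2 (log2 -0.24, adjusted p = 0.0563) among the guanylate kinases and Dlgap4 (-0.25, adjusted p = 0.0616) among the Dlgap genes. Among the other postsynaptic density proteins it was that of the catenin gene Ctnnd2 (-0.24, adjusted p = 0.0871). Itpr1 (-0.25, adjusted p = 0.137) had it among the Homer-binding proteins and the neuroligin gene Nlgn3 (-0.22, adjusted p = 0.138) among the PSD-95-held proteins. Neuron markers summed to 5775 to 5899 CPM in HET hippocampus, against 5403 to 5961 CPM in WT hippocampus. The 6 endothelial markers summed to 81.2 to 92.3 CPM in HET hippocampus, against 123 to 129 CPM in WT hippocampus, with 6 of 6 below 0 and 1 called lower. The 10 progenitor markers summed to 250.4 to 261 CPM in HET hippocampus, against 274 to 284 CPM in WT hippocampus, with 7 of 10 below 0 and 1 called lower. The 8 hippocampal markers summed to 7242 to 8307 CPM in HET hippocampus, against 7771 to 9051 CPM in WT hippocampus. Of these markers 7 of 8 were below 0, with a median log2 fold change of -0.17 and 1 called lower. Most of the sum was Camk2a, at 5376 to 6126 CPM per HET library and 5685 to 6491 CPM per WT library. Camk2a is also among the other postsynaptic density proteins, and the list held Neurod2 and Neurod6, which were also expressed in cortex. The sum is therefore not a measure of hippocampal subfields and is not separate from the binding-partner lists. On the mean log2 deviation of the 8 markers the HET libraries lay at 0.03, -0.20 and -0.09, against -0.15, 0.18 and 0.23 in WT. The mean over the 10 scaffold genes lay at 0.02, -0.14 and -0.08 in HET, against -0.03, 0.14 and 0.09 in WT. The lowest library of both lists was HET 2. The 8 oligodendrocyte markers summed to 7227 to 10531 CPM in HET hippocampus, against 6748 to 8549.7 CPM in WT hippocampus, with 7 of 8 above 0 and 0 called. The part of these cell types in the scaffold values was not tested.

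**Figure D4:**
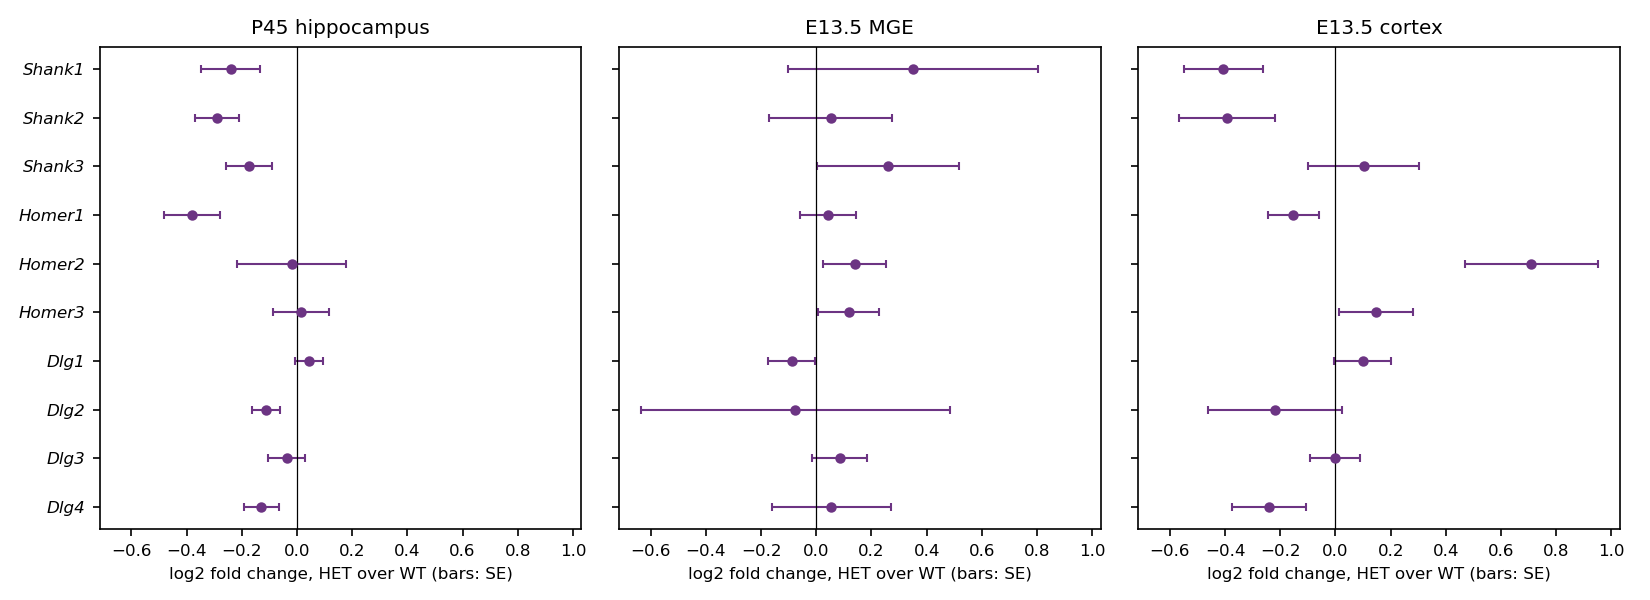
Log2 fold change of HET over WT for each gene in hippocampus, MGE and cortex; points are edgeR estimates from the fit within each tissue and bars their SE. Hippocampal values lie between -0.38 and 0.04, MGE values have the widest bars for Shank1 and Dlg2, and Homer2 in cortex is the highest point at 0.71.

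In MGE, 0 of the 10 genes passed, where 0.0479% of 14624 genes were called, and 0 had an unadjusted p under 0.05, where 4.51% of all genes had. DESeq2 and limma-voom also called 0. For Shank1, Dlg2 and Dlg4 the HET libraries spanned a wider range than the WT libraries. Shank1 stood at 112, 33.1 and 75.7 CPM in HET and 58.5, 48.1 and 66.3 CPM in WT MGE (log2 0.35, SE 0.45, adjusted p = 0.980). Dlg2 stood at 20.03, 4.93 and 11.4 CPM in HET and 7.67, 13.8 and 17.0 CPM in WT MGE (log2 -0.08, SE 0.56). Dlg4 stood at 129.5, 68.7 and 114 CPM in HET and 94.0, 103 and 104 CPM in WT MGE. In each of these genes HET 1 was the highest and HET 2 the lowest of the 6 libraries. On their mean log2 deviation the neuron markers were likewise highest in HET 1 (0.30, against 0.26 in WT 3) and lowest in HET 2. Their summed CPM was instead highest in WT 3 (4606) and lowest in WT 1 (3511), with 4426 in HET 1 and 3664 in HET 2. The part of neuron content in the result was not tested. Without HET 2 the log2 fold changes were 0.71 for Shank1 (adjusted p = 0.276), 0.52 for Shank3 and 0.29 for Dlg4, and without HET 1 they were -0.09, -0.04 and -0.14. Without both, chosen after seeing the data, they were 0.39, 0.27 and 0.18, and 0 of the 10 genes were called. Homer1, Homer3 and Dlg1 varied less, with log2 fold changes of 0.04 (SE 0.10), 0.12 (SE 0.11) and -0.09 (SE 0.09). None of the binding partners tested in MGE was called by edgeR, with 2 at an unadjusted p under 0.05 and 1 called lower by DESeq2. The lowest p was that of Lgi1, a secreted ligand held at the synapse (log2 -1.34, SE 0.38, adjusted p = 0.980). The filter on low counts left 26 of the 27 other postsynaptic density proteins and 12 of the 13 PSD-95-held proteins to test. For the X-linked Dlg3, the log2 fold change was 0.09 (SE 0.10), and here sex goes with genotype.

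In cortex, 0 of the 10 genes passed and 0% of 14757 genes were called. DESeq2 and limma-voom called 0 of the 10 as well. With an unadjusted p under 0.05 there were 2, where 7.89% of all genes had such a p. Homer2 stood at 99.0, 91.4 and 49.5 CPM in HET and 45.9, 55.0 and 47.1 CPM in WT cortex (log2 0.71, SE 0.24, adjusted p = 0.578). HET 1 and HET 2 were high, and HET 3 lay among the WT libraries. Shank1 stood at 39.5, 36.3 and 48.3 CPM in HET and 60.6, 47.4 and 57.8 CPM in WT cortex (log2 -0.41, SE 0.14, adjusted p = 0.578). Homer1 was the gene whose groups did not overlap, with 41.6, 37.6 and 40.4 CPM in HET and 44.4, 43.5 and 46.3 CPM in WT cortex (log2 -0.15, SE 0.09), where 11.1% of all genes had groups that did not overlap. Dlg2 stood at 22.3, 25.8 and 44.9 CPM in HET and 36.7, 36.9 and 35.7 CPM in WT cortex, and Dlg4 at 84.2, 82.9 and 115 CPM in HET and 111, 112 and 113 CPM in WT cortex. In both genes HET 1 and HET 2 lay below and HET 3 above all WT libraries, as HET 1 and HET 2 also lay below WT on the neuron markers. None of the binding partners tested in cortex was called by edgeR, with 10 at an unadjusted p under 0.05 and 0 called by DESeq2 or limma-voom. The lowest p was that of Grin2b (log2 -1.09, SE 0.26, adjusted p = 0.578). The filter on low counts left 12 of the 13 PSD-95-held proteins to test in cortex.

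Without cortex HET 3 the test called 6 of the 10 genes, in a fit that called 4598 of 14961 genes. Homer2 (log2 0.97), Homer3 (0.27) and Dlg1 (0.19) were then higher in HET, and Dlg2 (-0.58), Shank1 (-0.53) and Dlg4 (-0.41) lower. Without HET 1 and HET 2, chosen after seeing the data, 0 of the 10 were called and the values were 0.00 for Homer2, 0.30 for Dlg2 and 0.03 for Dlg4; the lone HET library is then assumed to vary like the WT libraries. The progenitor, neuron and blood markers of HET 1 and HET 2 moved with these values, and their part in the result was not tested.

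**Figure D5:**
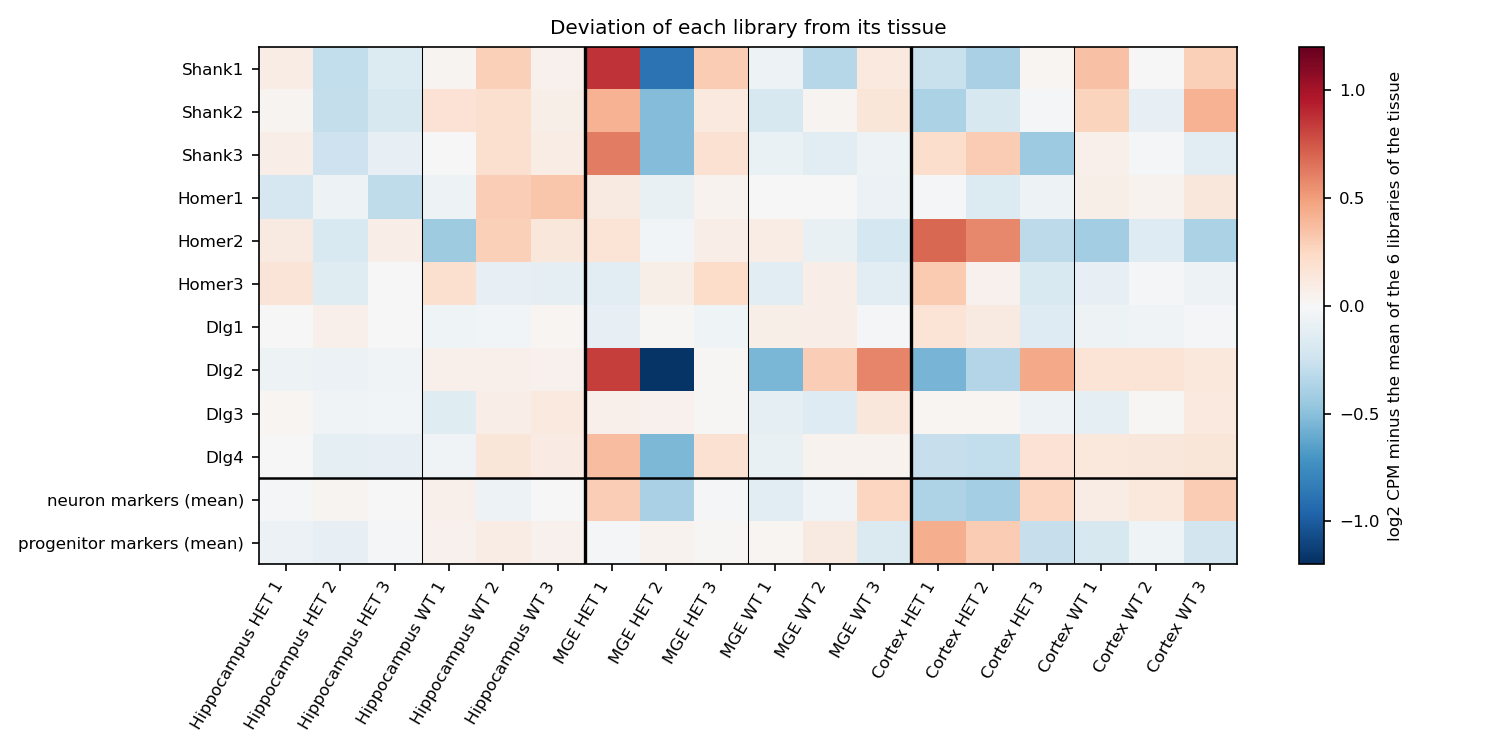
Log2 CPM of each scaffold gene in each library, minus the mean of the 6 libraries of its tissue, with the mean of 11 neuron and 10 progenitor markers in the lowest rows; columns are libraries with HET left of WT in hippocampus, MGE and cortex. MGE HET 1 and HET 2 lie at opposite ends for Shank1 (0.87 and -0.88), and cortex HET 1 and HET 2 are high for Homer2 and for progenitor markers.

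Whether the genotype effect differed between tissues was tested as an interaction in the fit of all 18 libraries. In the contrasts with MGE, genotype goes with sex in MGE, and the parts of genotype and sex cannot be told apart. For hippocampus minus cortex, hippocampus minus MGE and MGE minus cortex, 0 of the 10 genes passed, and 0.0124%, 0.0062% and 0% of 16125 genes were called. The lowest p values belonged to Homer1 for hippocampus minus MGE (log2 -0.43, SE 0.14, adjusted p = 0.591) and Homer2 for hippocampus minus cortex (log2 -0.72, SE 0.29, adjusted p = 0.349). These were the single genes with an unadjusted p under 0.05 in those contrasts, where 7.36% and 12.8% of all genes had one, and 0 had one for MGE minus cortex, where 7.01% of all genes had. DESeq2 and limma-voom called 0 in the 3 contrasts. Without cortex HET 3, Homer2 was called in hippocampus minus cortex (log2 -0.95, adjusted p = 0.00906) and in MGE minus cortex (log2 -0.79, adjusted p = 0.0436). The share of all genes called in these runs is not given here, so the Homer2 calls have no background to be set against. Omission of the same library also raised the number of all genes called within cortex, as given above.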

How the data were processed

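Expression was measured by poly(A)-selected RNA sequencing in 18 libraries. The deposited values are raw counts per gene symbol, and per the submitters' processing notes the authors used FastQC, Trimmomatic, TopHat2 2.1.1 and SAMtools with the mm10 build, and DESeq2. How reads were assigned to genes, with which annotation and strand option, is not given in the sources used here. Totals per library are the depth, and counting error is small beside replicate spread.

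HET and WT were compared within each tissue with edgeR 4.0.16 (R 4.3.3): filterByExpr (minimum count 10, minimum total 15), TMM scaling and a robust quasi-likelihood test on the deposited counts. Tissues and interactions were compared in a fit of all 18 libraries with 6 group means. A gene was called at a Benjamini-Hochberg adjusted p under 0.05 over all genes tested. SE is the absolute log2 fold change divided by the square root of F. Log2 CPM for correlations and marker means used a prior count of 2. The alternatives tried were scaling by RLE or by the upper quartile, all genes kept without a filter, DESeq2 1.42.0, limma-voom (limma 3.58.1), a replicate block, other sample sets, a covariate of Y-linked expression (hippocampus and cortex), and the omission of each library in turn. Settings without a pair of HET libraries were added after seeing the data. The procedure was tested on simulated data. The named genes are all 10 members, the most alike gene of each, and, in each list of binding partners, up to 3 called members per direction with the largest change or, where none was called, the member with the lowest p. One list member that this rule names is not reported here. The members and lists were chosen with earlier results of these data known. Positions and exon lengths come from GENCODE M21 and promoters from RefSeq.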

Additional observations from a re-analysis of the deposited data

How the results depend on the processing

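Of 120 results for a gene in a comparison, 50 were called. Over 1790 alternative values, 1742 kept the call status, 26 lost a call and 22 gained a call, and no called gene changed direction. Among 1124 alternative values of genes not called, 82 had the other sign. The number of scaffold genes called in hippocampus HET against WT was 2 with DESeq2, against 0, and 0 to 1 when each library was left out. In cortex HET against WT it was 0 to 6 when each library was left out, the 6 coming without HET 3, and in MGE it was 0. For WT MGE against WT cortex, upper-quartile scaling gave 4 and leaving out libraries 4 to 7, against 7. For HET MGE against HET cortex leaving out libraries gave 6 to 9, against 7. The interactions of hippocampus minus cortex and MGE minus cortex gave 0 to 1, against 0. The 4 contrasts of hippocampus against embryonic tissue gave 9 in each alternative run. The cause of these changes was not tested. Counts of genes with both hippocampal group means above all 4 embryonic group means were 9 with TMM and RLE and 8 with plain totals. Family shares could not pass the test in any setting, since 3 against 3 libraries allow no p below 0.1.

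Replicate numbers did not pair HET with WT libraries (correlations of same-numbered libraries from -0.23 to 0.12), and not every library correlated best with its own number. With the replicate number as a block, 0 scaffold genes were called between genotypes in each tissue and 9, 9 and 7 in the WT tissue contrasts, the same counts as without it. Over all genes the block gave 80 calls in hippocampus against 164, and 5 in MGE against 7. Depth was not the limit for these genes, whose lowest value in any library was 4.93 CPM (Dlg2, MGE HET 2).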
